A study of Rattus norvegicus with 4 samples.

Results

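The Cadm genes encode nectin-like adhesion molecules, and their expression was examined in S16 cells, an immortalized rat Schwann cell line. The members were taken by gene symbol and are Cadm1, Cadm2, Cadm3 and Cadm4, which make 4 of the 30708 genes listed for each library. Poly(A) RNA-Seq had been performed on 2 populations of unmodified S16 cells, with 2 libraries labelled as technical replicates for each, giving 4 libraries in all. One population was at passage 9 and was the parental line of the study's enhancer deletion clones, and the other was at passage 39. Both were grown in the same standard medium with L-glutamine and received no treatment, and the clones themselves were not analysed here. Each passage is thus represented by 1 population of a cell line cultured without axons, and passage and population cannot be told apart. In bulk RNA, fewer cells that express a gene and less RNA of that gene per cell cannot be told apart either.

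Cadm proteins are single-pass membrane proteins with immunoglobulin-like domains outside the cell and a short cytoplasmic tail that binds protein 4.1 and PDZ-domain scaffolds. They hold cells together by binding each other across the cell gap, either as like pairs or as unlike pairs. In peripheral nerve, Cadm4 (also called Necl-4) is the main member of the myelinating Schwann cell and lies along the internode, where it faces Cadm2 (Necl-3) and Cadm3 (Necl-1) on the axon. Cadm1 (Necl-2) is expressed in many tissues, is known from synapses and was first described as a suppressor of lung tumours.

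The RefSeq promoter table (build GRCr8, not the build of the alignments) held 3 of the 4 members. The 250 bases before the annotated start are shown for these members because Cadm4 was the member with a high level in every library, while Cadm2 and Cadm3 were low and lower again in the same libraries. Sequences run 5′ to 3′ along the gene, and capitals mark every match, on either strand, to a monomer of the study's SOX10 consensus (ACAAT or ACAAA or ACAAG or ACACA), to the GC box letters GGGCGG, to the CCAAT box letters CCAAT, or to the TATA box letters TATAAA.
Cadm4, chr1:89202839-89203088, plus strand: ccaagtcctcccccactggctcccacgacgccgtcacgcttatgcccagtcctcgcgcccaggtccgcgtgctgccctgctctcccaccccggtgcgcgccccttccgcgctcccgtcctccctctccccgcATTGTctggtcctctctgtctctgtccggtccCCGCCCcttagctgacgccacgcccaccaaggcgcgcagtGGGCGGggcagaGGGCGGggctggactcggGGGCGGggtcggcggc
Cadm2, chr11:18971887-18972136, minus strand: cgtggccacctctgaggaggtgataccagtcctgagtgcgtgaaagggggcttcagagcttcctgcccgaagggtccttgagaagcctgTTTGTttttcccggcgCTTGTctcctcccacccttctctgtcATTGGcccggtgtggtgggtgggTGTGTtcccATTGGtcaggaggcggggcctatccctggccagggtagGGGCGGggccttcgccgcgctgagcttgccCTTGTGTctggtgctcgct
Cadm3, chr13:88349719-88349968, minus strand: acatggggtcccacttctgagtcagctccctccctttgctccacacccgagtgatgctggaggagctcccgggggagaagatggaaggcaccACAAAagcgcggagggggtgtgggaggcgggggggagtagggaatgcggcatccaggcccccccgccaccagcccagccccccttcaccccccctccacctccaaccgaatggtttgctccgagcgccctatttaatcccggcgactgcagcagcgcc

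The Cadm4 window was 74% G and C and held 4 GC boxes and 1 SOX10 monomer, ATTGT. The Cadm2 window was 63.2% G and C and held 5 SOX10 monomers, of which the last pair (CTTGT and TGTGT) overlap, together with 1 GC box and 2 CCAAT boxes read on the other strand as ATTGG. The Cadm3 window was 66.4% G and C and held 1 SOX10 monomer, ACAAA, and no GC or CCAAT box. No window held TATAAA. Over all 33469 windows of the same length, 79.6% held a SOX10 monomer, 30.5% a GC box, 34.0% a CCAAT box and 12.9% TATAAA, and the median G and C content was 51.2%. A number of GC boxes at least as high as that of Cadm4 occurred in 3.67% of all windows. The share of windows with as many SOX10 monomers as that of Cadm2 was not computed. These matches are descriptions of the letters and not sites of binding.

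The values deposited by the authors are RPKM, the reads of a gene scaled by its length in kilobases and by 1000000 reads of the library. Levels are compared between genes on this scale. Such comparisons rest on the gene lengths used, which are not given in the sources used here. Whole reads were recovered from the RPKM values, and the library totals behind them were between 34.2 and 41.4 M reads (M, 1000000). The methods of the study state fewer reads per cell line, with technical replicates pooled over sequencing lanes. The reason for this difference was not tested. A 95% interval beside a single library is the exact (Clopper-Pearson) one for its reads and holds no error other than that of counting. Since only the lowest whole numbers compatible with the values can be found, the true reads can be a multiple of those given and the intervals can be too wide. In the following, the libraries labelled technical replicate 1 and technical replicate 2 are called the first and the second library of a passage. The libraries did not group by passage. In the 11025 genes that averaged 1 RPKM or more, the SD of the log2(RPKM + 1) differences was 0.339 and 0.334 between the libraries of passage 9 and of passage 39. It was 0.0796 between the first and 0.0823 between the second libraries of the different passages. What separates the libraries by number was not tested, and the Cadm genes are therefore given both by passage and by technical replicate number. Both were taken from the labels as they stand, and whether the passage or the pairing of technical replicates is exchanged in the labels was not tested. If it were, the comparisons by passage and by number would exchange their meaning, and the population means and SDs would change. A population mean is the mean of its 2 libraries, and the SD is taken over the 2 populations. This SD therefore leaves out the difference between the first and the second library of a population.

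The cells carried the Schwann cell label in their markers. All 12 listed Schwann cell markers were above 1 RPKM, with summed levels between 4018 and 4998 RPKM in the 4 libraries. Of the 12 neuron markers, Syt1, Stmn2 and Elavl4 were listed at 0 in every library and 3 were above 1 RPKM, namely Nefl, Nefm and Tubb3, so that the summed level was between 163 and 198 RPKM. Of the 8 macrophage markers, Ptprc, Itgam, C1qa and C1qb were listed at 0 throughout, and the sum was between 2.82 and 3.34 RPKM. Of the 7 melanocyte markers, Tyr and Kit were at 0, and the sum was between 11.0 and 11.9 RPKM. The 8 fibroblast markers summed to between 3433 and 3934 RPKM, nearly all of it from Col1a1. Col3a1 was at between 48.5 and 82.8 RPKM and Pdgfra at between 4.62 and 6.16 RPKM, while Thy1 was at 0 and Dcn had a mean of 0.00330 RPKM.

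Cadm4 was among the most abundant transcripts of S16 cells. At passage 9 it was listed at 1117 RPKM in the first and 1119 RPKM in the second library, and at passage 39 at 1114 and 1087 RPKM. The mean was 1109 ± 12.1 RPKM (SD, n = 2 populations), which ranked 17 among the 30708 listed genes. It ranked 15 in both first libraries and 19 in both second ones. The libraries lay close together. The highest was 1.03-fold above the lowest, the second library of passage 39, whose 95% interval of 1078 to 1097 RPKM did not overlap those of the other 3, which spanned 1104 to 1129 RPKM. Its level can be set beside those of myelin-related genes: in every library it was below Pmp22, which encodes a membrane protein of compact myelin, at between 0.845 and 0.917 of its RPKM, but between 14.2-fold and 18.5-fold above Mag, which encodes another immunoglobulin-type adhesion protein of the Schwann cell membrane next to the axon.

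Cadm1 was the second member in abundance and fell into 2 levels. It was listed at 15.4 RPKM in the first library of passage 9 (1983 reads, 95% interval 14.8 to 16.1 RPKM), against 5.65 RPKM in the second (615 reads, 5.21 to 6.11 RPKM). The libraries of passage 39 had 15.9 RPKM in the first (1687 reads, 15.1 to 16.7 RPKM) and 5.42 RPKM in the second (691 reads, 5.02 to 5.84 RPKM). Both first libraries were high and both second ones low, and the intervals of the high and low libraries were far apart. The mean of 10.6 ± 0.0725 RPKM (SD, n = 2 populations) ranked 5659 and lay near no single library, since it averages a high and a low library in each population. Cadm1 ranked 4244 and 4156 in the first libraries and 7777 and 7884 in the second, for passage 9 and passage 39.

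Cadm2 and Cadm3, both known from axons, were detected at low levels. Cadm2 was at 1.70 RPKM in the first library of passage 9 (81 reads, 95% interval 1.35 to 2.11 RPKM), against 0.444 RPKM in the second (18 reads, 0.263 to 0.702 RPKM). Its values at passage 39 were 1.06 RPKM (42 reads, 0.766 to 1.44 RPKM) and 0.485 RPKM (23 reads, 0.308 to 0.728 RPKM). Both first libraries were again above both second ones, and their intervals did not overlap. The mean of Cadm2 was 0.922 ± 0.210 RPKM (SD, n = 2 populations), with a rank of 11120.

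Cadm3 was at 0.952 RPKM in the first library of passage 9 (99 reads, 95% interval 0.774 to 1.16 RPKM), against 0.170 RPKM in the second (15 reads, 0.0952 to 0.281 RPKM). Its values at passage 39 were 0.825 RPKM (71 reads, 0.645 to 1.04 RPKM) and 0.165 RPKM (17 reads, 0.0960 to 0.264 RPKM). The first and second libraries did not overlap for this gene either. Its mean was 0.528 ± 0.0468 RPKM (SD, n = 2 populations), with a rank of 11838. All Cadm2 and Cadm3 values were above the level of 3 reads in their library, which was at most 0.0759 RPKM for Cadm2 and at most 0.0349 RPKM for Cadm3.

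**Figure D1:**
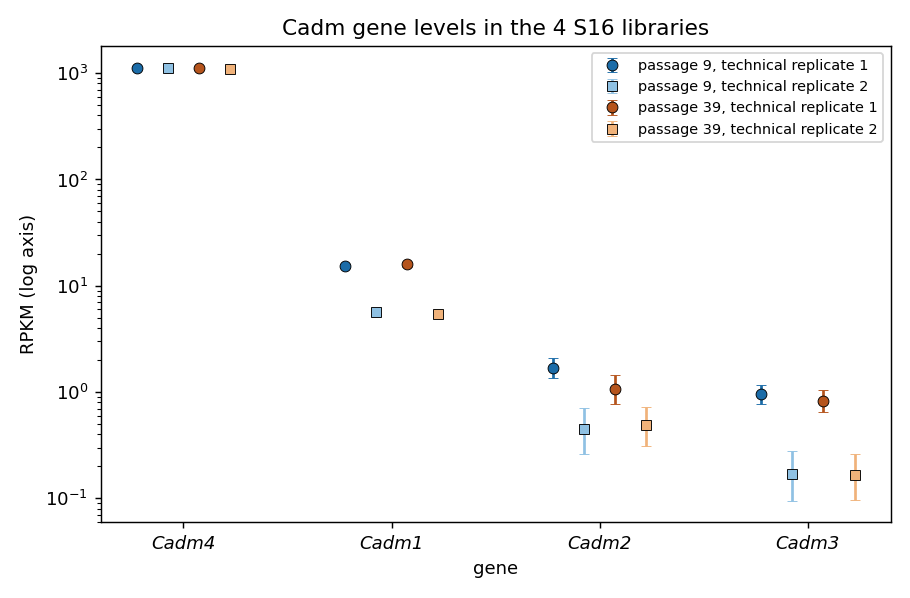
RPKM (log axis) of each Cadm gene in the 4 S16 libraries, with circles for technical replicates 1, squares for technical replicates 2, and bars for the 95% counting interval of the single library. Cadm4 lies between 1087 and 1119 RPKM in all libraries, whereas Cadm1, Cadm2 and Cadm3 are higher in both circles than in both squares.

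The order Cadm4, Cadm1, Cadm2, Cadm3 held in each of the 4 libraries. Cadm4 was between 70.2-fold and 201-fold above Cadm1, and Cadm1 was between 9.10-fold and 14.9-fold above Cadm2. Cadm2 was between 1.29-fold and 2.95-fold above Cadm3, and the counting intervals of these neighbours overlapped in 2 of the 4 libraries, the second of passage 9 and the first of passage 39. Of the summed RPKM of the members, Cadm4 made up 98.4% in both first libraries and 99.4% in both second ones. The other 3 members together made up 1.59% and 1.57% in the first libraries and 0.557% and 0.555% in the second, for passage 9 and passage 39. Since these are shares within a library, a common scaling of the library cannot move them.

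By the passages that the labels give, Cadm4 and Cadm1 differed little. The population mean of Cadm4 was 1118 RPKM at passage 9 and 1101 RPKM at passage 39, which is a difference of -0.02 on the log2(RPKM + 1) scale, passage 39 minus passage 9. Between libraries of the same number, the ratio of passage 39 to passage 9 was 0.997 (95% counting interval 0.984 to 1.01) for the first and 0.972 (0.960 to 0.985) for the second libraries. Cadm1 had population means of 10.5 and 10.6 RPKM, a log2 difference of 0.01, with ratios of 1.03 (0.963 to 1.10) and 0.960 (0.860 to 1.07). These intervals compare libraries and not passages, as each passage had 1 population.

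For Cadm2 the population means were 1.07 RPKM (passage 9) and 0.774 RPKM (passage 39), a log2 difference of -0.22. The lower mean came from the first libraries, with a ratio of 0.627 (95% counting interval 0.421 to 0.920), while the second libraries had a ratio of 1.09 (0.564 to 2.15). Without the first library of passage 9 the log2 difference of Cadm2 was 0.30, and without the second it was -0.60. Cadm3 had population means of 0.561 and 0.495 RPKM, a log2 difference of -0.06, with ratios of 0.867 (0.630 to 1.19) and 0.968 (0.455 to 2.08). None of the 4 members, which all averaged 0.1 RPKM or more, reached a 2-fold difference between the passages on this scale. Among the 14008 genes with this minimum the share was 0.00714%, and among the 11025 genes that averaged 1 RPKM or more, which hold Cadm1 and Cadm4 but not Cadm2 and Cadm3, it was 0.00907%. In both sets this was 1 gene, LOC102551208, which was named after its values were seen and was above 0 in 1 library only. A count of 0 members is thus near these shares. For low genes the scale itself limits this count. Cadm3, at 0.643 on this scale at passage 9, could not have shown a 2-fold fall even if undetected at passage 39. The share over the 14008 genes is held down in the same way. With a pseudocount of 0.1 RPKM the passage differences were -0.42 for Cadm2 and -0.15 for Cadm3.

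The technical replicate number separated Cadm1, Cadm2 and Cadm3 from Cadm4. Cadm1 was 2.73-fold lower in the second than in the first library at passage 9 (95% counting interval 2.50 to 3.00) and 2.93-fold lower at passage 39 (2.68 to 3.20). Cadm2 was 3.82-fold lower at passage 9 (2.27 to 6.76) and 2.19-fold lower at passage 39 (1.29 to 3.82). Cadm3 was 5.60-fold lower at passage 9 (3.23 to 10.4) and 5.01-fold lower at passage 39 (2.92 to 9.08). For Cadm4 the ratio of the second to the first library was 1.00 (0.988 to 1.01) at passage 9 and 0.976 (0.963 to 0.989) at passage 39.

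**Figure D2:**
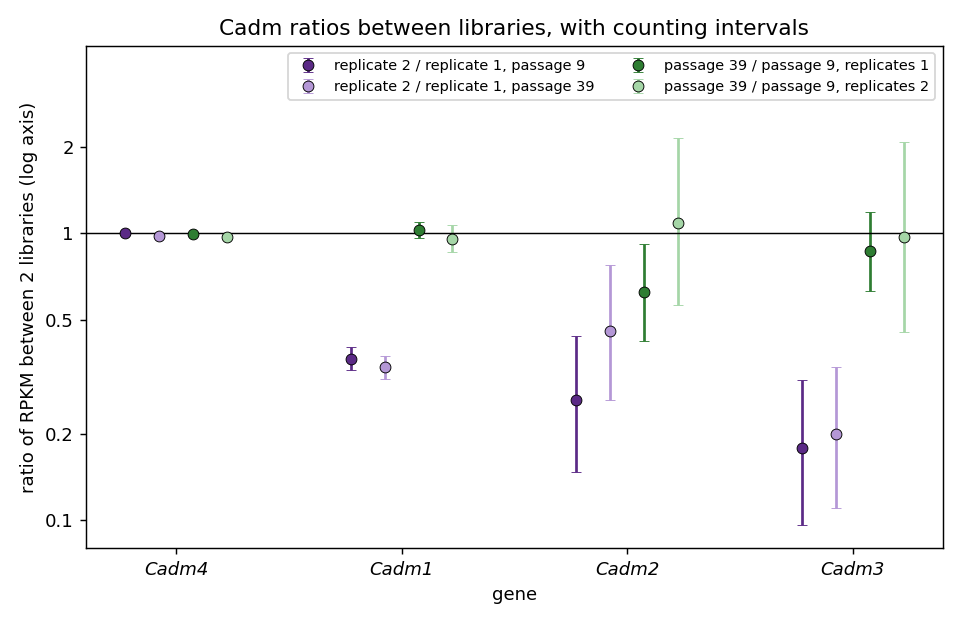
Ratios of RPKM between 2 libraries (log axis) for each Cadm gene, with 95% counting intervals, for technical replicate 2 over 1 within each passage (purple) and passage 39 over 9 within each replicate number (green). The purple points of Cadm1, Cadm2 and Cadm3 lie between 0.179 and 0.456, all below 0.5, whereas those of Cadm4 and most green points lie near 1.

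A ratio of at most 0.5 in both passages was found for 3 of the 4 members, Cadm1, Cadm2 and Cadm3, against 2.78% of the 14008 genes that averaged 0.1 RPKM or more. Over the same genes, the ratio of the means of second and first libraries was 0.353 for Cadm1, 0.337 for Cadm2 and 0.188 for Cadm3, and 1.60%, 1.48% and 0.514% of genes had a ratio at least as low. On the log2(RPKM + 1) scale, which understates the change of low genes, the difference of second minus first libraries was -1.35 for Cadm1, -0.69 for Cadm2, -0.69 for Cadm3 and -0.02 for Cadm4. A 2-fold fall on this scale was thus reached by Cadm1 alone of the 2 members that averaged 1 RPKM or more, against 0.726% of the 11025 genes. The median difference of all these genes was 0.10. The ratio of Cadm4 to Cadm1 within a library, which does not depend on the scaling, was 72.4 and 70.2 in the first libraries and 198 and 201 in the second, for passage 9 and passage 39.

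**Figure D3:**
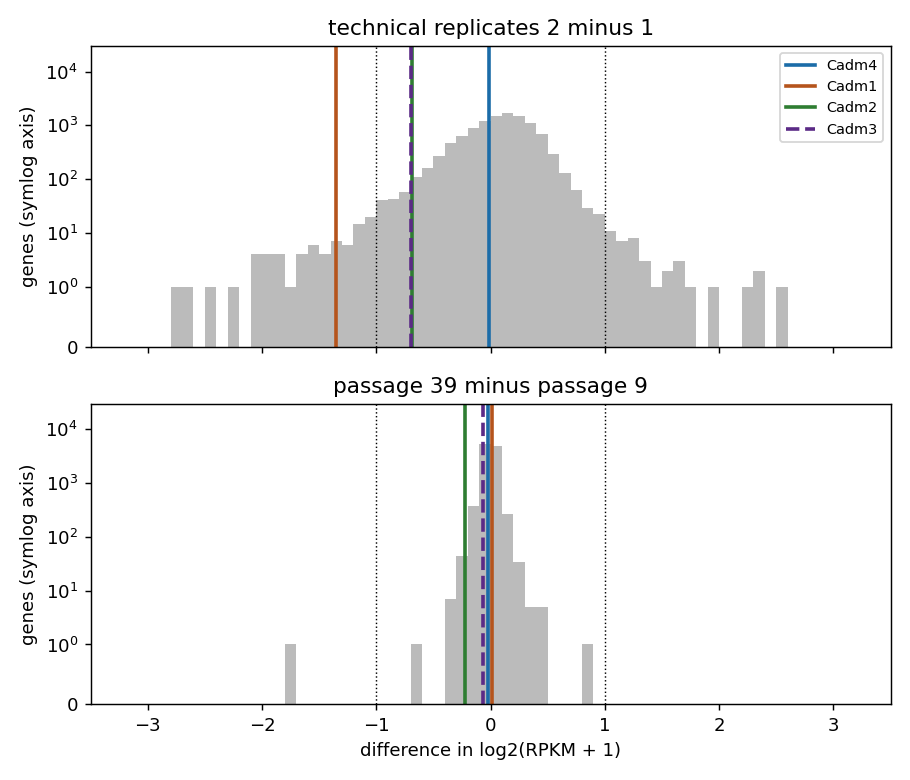
Number of genes (grey, linear below 1 and log above) by their difference in log2(RPKM + 1), for technical replicates 2 minus 1 averaged over both passages (top) and for passage 39 minus passage 9 (bottom), over 11025 genes averaging 1 RPKM or more, with dotted lines at a 2-fold difference. Coloured lines mark the Cadm genes, of which Cadm2 and Cadm3 had means under 1 RPKM and are not among the grey genes; Cadm1 lies at -1.35 in the top panel and at 0.01 in the bottom one.

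The genes whose level over the 4 libraries was most like that of each member were found by the smallest value of their largest absolute log2(RPKM + 1) difference from it in any of the 4 libraries. For Cadm4 these were Cfl1, which encodes the actin-severing protein cofilin, with a largest difference of 0.14, Serf2 with 0.16, and the myelin gene Pmp22 with 0.24. For Cadm1 they were Itga4, which encodes an integrin subunit, with 0.16, Gas2l3 with 0.21 and Nrep with 0.27. The first of these, Itga4, was at 14.3, 6.12, 14.1 and 5.59 RPKM in the libraries in the order of passage 9 and then passage 39, and so was also high in both first libraries. For Cadm2 they were Ctnna3 (0.17), an alpha-catenin gene, Adamts9 (0.19) and Zbtb37 (0.19), and for Cadm3 they were the ion channel gene Trpm3 (0.10) and the dioxin receptor gene Ahr (0.10). These are likenesses over 4 libraries of 1 cell line.

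Genes for the proteins that bind Cadm tails were among those expressed in S16 cells. Of the protein 4.1 family, 3 of the 4 genes were listed. Epb41l2, which encodes protein 4.1G, known to bind Cadm4 in Schwann cells, had 123 and 105 RPKM at the earlier passage and 124 and 104 RPKM at the later one, with a mean of 114 ± 0.0310 RPKM (SD, n = 2 populations). Epb41l3 was at 36.1 ± 0.505 RPKM and Epb41l1 at 4.79 ± 0.0113 RPKM. In these 3 genes the log2 difference of second minus first libraries was between -0.24 and 0.42.

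Of the 16 MAGUK and PDZ scaffold genes, 15 were listed and 10 had a mean of at least 1 RPKM. The highest were Lin7c at 51.4 ± 0.879 RPKM, which encodes a small PDZ protein of the Lin7 group, and Dlg1 at 42.5 ± 0.209 RPKM. Lin7c had 60.1 and 41.4 RPKM at the earlier passage and 61.6 and 42.4 RPKM at the later one. Mpp6, whose protein joins Cadm4 and protein 4.1G in Schwann cells, had 6.52 and 4.02 RPKM at the earlier passage and 6.73 and 3.75 RPKM at the later one. It was lower in both second libraries, with a log2 difference of -0.64, the lowest of this list. Cask was at 1.80 ± 0.00980 RPKM, the polarity gene Pard3 at 8.42 ± 0.159 RPKM, and Lin7a was listed at 0 in every library.

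The other cytoplasmic effectors were all above 1 RPKM. Rac1, a small GTPase that moves the actin skeleton, was at 153 ± 1.16 RPKM, Farp1 at 21.0 ± 0.182 RPKM, Farp2 at 15.2 ± 0.179 RPKM and the Rac activator Tiam1 at 2.46 ± 0.0102 RPKM. Farp2 had 18.8 and 11.2 RPKM at the earlier passage and 18.8 and 11.8 RPKM at the later one. Among the nectins, the family to which Cadm proteins are related, Pvrl3 was at 16.8 ± 0.359 RPKM, Pvrl2 at 9.52 ± 0.233 RPKM and Pvrl1 at 3.25 ± 0.0375 RPKM, while Pvrl4 had a mean of 0.0134 RPKM. Mllt4, which encodes afadin, the actin linker of nectins, was at 6.64 ± 0.114 RPKM. Cadm4 was therefore above every listed nectin gene, and Cadm1 was below Pvrl3 in every library. Pvrl2, at 8.67 and 10.7 RPKM at the earlier passage and 8.56 and 10.1 RPKM at the later one, was below Cadm1 in both first libraries and above it in both second ones.

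Crtam, the lymphocyte receptor for Cadm1, was listed at 0 in all libraries, as were Cd226 and Cd96, and Tigit had a mean of 0.00825 RPKM. Of the 8 genes of sheddases and gamma-secretase, proteases that cut Cadm1 at the membrane, 7 had a mean of at least 1 RPKM and Aph1b was listed at 0 in every library. Adam10 was at 19.7 ± 0.153 RPKM and Adam17 at 15.9 ± 0.116 RPKM, with the gamma-secretase genes Ncstn at 64.5 ± 0.172 RPKM, Psenen at 47.1 ± 1.20 RPKM and Aph1a at 43.9 ± 0.339 RPKM. In all partner lists, 28 of 39 listed genes had a mean of at least 1 RPKM, and 0 of the 28 were 2-fold apart by technical replicate number or by passage, against 1.1% and 0.00907% of the 11025 genes, so that a count of 0 does not set these lists apart. Their median log2 difference of second minus first libraries was -0.04, from -0.66 for Farp2 to 0.62 for Mllt4, beside 0.10 for all genes tested.

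**Figure D4:**
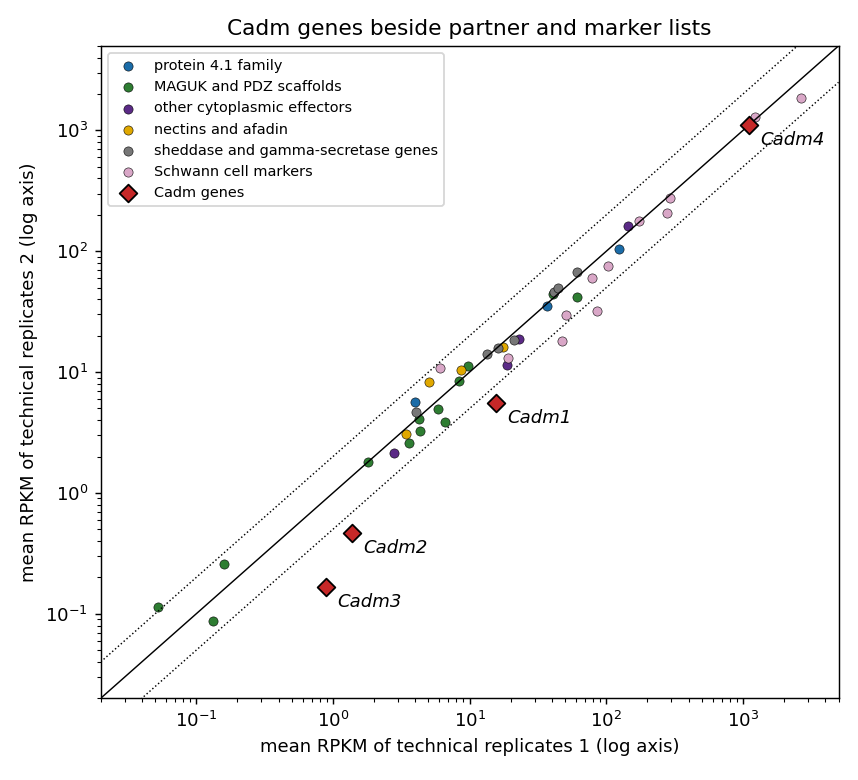
Mean RPKM of technical replicates 1 (x) and technical replicates 2 (y), both on log axes, for the Cadm genes (diamonds), their partner lists and the Schwann cell markers, with a solid line of equality and dotted lines at a 2-fold difference; genes under the axis range or at 0 are not drawn. Cadm4 lies on the line of equality, while Cadm1, Cadm2 and Cadm3 lie below the lower dotted line, at 5.53, 0.465 and 0.167 RPKM in technical replicates 2.

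Schwann cell markers moved with the technical replicate number as well. Of the 12 markers, 9 were lower and 3 higher in the second libraries, while 35.9% of the 11025 genes were lower. The median log2 difference was -0.43, beside 0.10 for all these genes, and 2 markers were at least 2-fold lower, against 0.726% of the genes. S100b, a calcium-binding protein gene, was among these, with 85.7 and 31.8 RPKM at the earlier passage and 86.6 and 32.8 RPKM at the later one. Its log2 difference, -1.39, was of the size of that of Cadm1. Pmp22 and Sox10, at 0.08 and 0.06, were near that of Cadm4. Of the 3 higher markers, Egr2 had the largest difference, 0.73. It had 5.90 and 10.5 RPKM at the earlier passage and 6.21 and 11.0 RPKM at the later one. Neuron markers above 1 RPKM had differences of -0.62 for Nefl, -0.23 for Nefm and 0.33 for Tubb3, and fibroblast, macrophage and melanocyte markers above 1 RPKM lay between -0.73 and 0.33. The part of any of these in the Cadm differences was not tested.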

How the data were processed

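Per the methods of the study, TruSeq libraries were sequenced as single ends, reads were aligned with STAR to the rat Rnor_5.0 genome, and HTSeq counted uniquely mapped reads per gene, with strand ignored, so reads of overlapping antisense genes cannot be separated. The authors deposited RPKM values; the gene lengths and totals behind them are not given in the sources used here. As deposited, these values sum to between 315847 and 351061 per library.

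Ratios of RPKM values between libraries gave the library totals and then the whole reads, for the 18114 genes above 0 in at least 2 libraries (each value given back within a relative 1e-11). The recovery was also run on simulated data. These were built from the recovered lengths and totals, so they cannot show whether the real ones are off by a whole factor. Means, SDs, exact intervals and log2 differences with a pseudocount of 1 RPKM were computed in Python 3.11.15 (scipy 1.17.1, numpy 2.4.6, pandas 2.3.3), and plots with matplotlib 3.10.9. With 1 population per passage, no test was run and no p-value is given. The interval of a ratio of 2 libraries is the exact binomial interval of their reads.

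Named genes are the members, the genes of fixed lists and, for each member, the 3 genes most like it. A few genes under this rule are not reported here. The members and lists were chosen with earlier results of these data known. A value of 0 is read only as listed at 0. Alternatives were other scalings, a pseudocount of 0.1 RPKM, other minimums, and each library left out.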

Additional observations from a re-analysis of the deposited data

Results flagged for a closer look

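Cadm4 had 1 library apart from the other 3, the second library of passage 39 at 1087 RPKM, whose gap to the next library over the range of the 4 was 0.863. About 1 in 20 such groups of values is picked out in this way by chance, and the whole range was from 1087 to 1119 RPKM.

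A few differences had opposite signs in the groups compared, and none of these contrasts was tested. The passage difference of Cadm1, on the log2(RPKM + 1) scale, was 0.037 in the first and -0.050 in the second libraries. That of Cadm2 was -0.39 in the first and 0.040 in the second libraries. The difference of second minus first libraries of Cadm4 was 0.0016 at passage 9 and -0.035 at passage 39.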

How the results depend on the processing

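Of 106 alternative values, 71 moved by no more than the SD of their result or stayed within 1.5 times a count, and no called difference changed sign. For the differences by technical replicate number, that SD is taken over the values of the 2 passages. The values of 1 passage alone, or with 1 library left out, are these same values and could not move further. Nor could the ranks of Cadm1 and Cadm4 change when genes under 1 RPKM were left out. These values are counted in the 71 but show no stability. The level of Cadm1, 10.6 RPKM, was 10.8 after median-ratio scaling and 10.9 after scaling to the mean sum of RPKM. Leaving out each library in turn, it was from 7.98 to 13.2 RPKM, that of Cadm2 from 0.609 to 1.24 and that of Cadm3 from 0.333 to 0.724. Each of these follows from the unequal mix of technical replicate numbers that remains.

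By passage, the log2 differences over the libraries left out were from -0.85 to 0.81 for Cadm1, from -0.60 to 0.30 for Cadm2 and from -0.42 to 0.35 for Cadm3, and that of Cadm3 was -0.15 with a pseudocount of 0.1 RPKM. With the replicate number as a replicate block, they were -0.0064 for Cadm1, -0.17 for Cadm2, -0.052 for Cadm3 and -0.022 for Cadm4.

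By technical replicate number, Cadm1 was at -1.43 after median-ratio scaling, -1.48 after scaling to the mean sum and -1.48 with a pseudocount of 0.1 RPKM. With that pseudocount Cadm2 was at -1.36 and Cadm3 at -1.88, both past 2-fold. Cadm4 was at -0.11 and -0.16 after the 2 scalings, which moved the median of all genes from 0.10 to 0.027 and -0.023. Relative to genes of similar recovered length, an alternative chosen after seeing the data, Cadm1 was at -1.46, Cadm2 at -0.92, Cadm3 at -0.83 and Cadm4 at -0.24. The recovered lengths can be too short by a whole factor, so this check is weak. The number of genes 2-fold apart by passage, 1, was 0 with a minimum of 5 RPKM, and the number by technical replicate number, 121, was 253 with a pseudocount of 0.1 RPKM. Between 15 and 23 reads of Cadm2 and Cadm3 in the second libraries limit the precision of their ratios.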
